A study of Mus musculus with 2 samples.

Results

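A set of 10 genes of the type I interferon response, Ifit1, Ifit2, Ifit3, Ifit3b, Isg15, Usp18, Rsad2, Oas1a, Oasl1 and Oasl2, were read in every cell of 2 single-cell RNA libraries. They were chosen by symbol, and each of the 10 symbols matched 1 row of the 32589 features in the files. The cells were sorted as CD45low CD11b+ from the prefrontal cortex of C57BL/6 mice, a gate meant to take microglia, the resident macrophages of the brain. The vehicle library came from mice given the vehicle alone, and the corticosterone library from mice given corticosterone, the main glucocorticoid of rodents, by oral gavage as a model of depression with excess glucocorticoid. Dose, duration, age, sex and the number of mice behind a library were not given in the labels. Each treatment had 1 library, so treatment and library cannot be told apart and no test between treatments was possible. Every interval below is a 95% interval, and none covers variation between mice. Intervals of median log2 ratios describe the spread over the 10 genes, and all others are for counting error only.

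Type I interferons bind a receptor that activates transcription factors, which bind a DNA element, the interferon-stimulated response element (ISRE), in front of their target genes. The Ifit proteins bind foreign RNA and hinder its translation. ISG15 is a small protein that is attached to other proteins like ubiquitin, and USP18 removes it and also blocks the interferon receptor. Viperin, the product of Rsad2, makes a chain-terminating nucleotide, Oas1a encodes an oligoadenylate synthetase, and the Oasl proteins are relatives of that enzyme. Microglia carry the receptor and respond to interferon in infection, ageing and injury.

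The promoters of 9 of the 10 genes were found in the RefSeq table of GRCm38.p6, as windows from 250 bases before to 50 bases after a transcription start; Usp18 had no entry. The ISRE core, GAAANNGAAA (TTTCNNTTTC on the other strand), was searched on both strands with overlapping matches counted. It was found in 6 of these 9 genes, against 1079 of all 27025 genes in the table (3.99%) and 1131 of all 32851 windows (3.44%). Of 88 genes of the other interferon pathway lists described below, 33 (37.5%) had a match, so a match is not particular to these genes. The stretches that hold the matches are shown because they are what these promoters share, 5′ to 3′ on the strand of the gene, with the matched letters in capitals.
Ifit1: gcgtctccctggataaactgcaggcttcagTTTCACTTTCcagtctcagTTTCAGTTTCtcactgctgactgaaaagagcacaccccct
Ifit3: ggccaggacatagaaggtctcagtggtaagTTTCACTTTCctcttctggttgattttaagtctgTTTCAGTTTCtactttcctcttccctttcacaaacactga
Ifit3b: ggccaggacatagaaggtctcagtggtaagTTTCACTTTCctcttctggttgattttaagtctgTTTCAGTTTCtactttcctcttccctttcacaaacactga
Isg15: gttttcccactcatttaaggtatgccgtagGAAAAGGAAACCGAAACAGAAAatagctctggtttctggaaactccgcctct
Rsad2: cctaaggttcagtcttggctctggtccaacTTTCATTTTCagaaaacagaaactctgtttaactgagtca
Oas1a: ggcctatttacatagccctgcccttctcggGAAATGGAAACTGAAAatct

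The Ifit1 stretch lies on the plus strand at chr19:34640755-34640843 (GRCm38) and holds 2 matches, 104 and 85 bases before the start. The Ifit3 stretch (plus strand, chr19:34583343-34583446) and the Ifit3b stretch (plus strand, chr19:34607739-34607842) are identical over their 104 bases, with 2 matches each. The Isg15 stretch (minus strand, chr4:156200845-156200926) holds 3 overlapping matches, the Rsad2 stretch (minus strand, chr12:26456533-26456602) holds 1, and the Oas1a stretch (minus strand, chr5:120907526-120907575) holds 2 that overlap. The letters were not in the windows of Ifit2 (2 windows), Oasl1 or Oasl2. A match describes the letters in a window and is not a measured binding site.

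All 4 Ifit genes lie in 1 region of chromosome 19, Ifit2 at 34550694-34576419, Ifit3 at 34583531-34588731, Ifit3b at 34607970-34613401 and Ifit1 at 34640871-34650009, and all are protein-coding in the GENCODE annotation of GRCm38. Oas1a (120896256-120907521), Oasl1 (114923240-114937915) and Oasl2 (114896936-114912234) are on chromosome 5. Isg15 is on chromosome 4 (156199424-156200818), Usp18 on chromosome 6 (121245906-121270917) and Rsad2 on chromosome 12 (26442746-26456452). Of the 1656 stretches of 90 bases in the Ifit3 transcript, 35.1% also occur in Ifit3b, and of the 1796 in Oas1a, 42.7% occur in Oas1g. Of 411 such stretches at the 3′ end of each transcript, 6.57% of those of Ifit3 occur in Ifit3b, 0% of those of Ifit3b in Ifit3, and 42.3% of those of Oas1a in Oas1g. How the submitters' counting shared reads between such copies is not given in the sources used here. The values of Ifit3, Ifit3b and Oas1a are therefore uncertain to an unknown extent.

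After removal of barcodes with under 500 UMIs (unique molecular identifiers, each marking 1 captured transcript), under 300 genes or over 20% mitochondrial UMIs, 10500 vehicle and 17883 corticosterone cells remained, with medians of 3220.5 and 3961 UMIs and 2.67% and 4.20% mitochondrial UMIs. Of the kept barcodes, 101 occurred in both libraries. The cells were clustered without the 10 genes and the interferon genes of the pathway lists described below. From their markers, 7900 vehicle and 15123 corticosterone cells were called microglia-like, holding 32413850 and 70795543 UMIs. None of the 9 microglia markers was at 0 in these cells, and together they reached 33546 and 29940 CPM (UMIs per 1000000 UMIs of the summed cells). The sort also let through cells with the markers of border-associated macrophages, neutrophils, monocytes, erythroid cells and endothelial cells.

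In microglia-like cells all 10 genes were higher in the corticosterone library, by 3.88-fold (Isg15) to 13-fold (Oasl1). Summed over the 10 genes, 2533 UMIs gave 78.1 CPM (75.1 to 81.2) in the vehicle library and 29379 UMIs gave 415 CPM (410 to 420) in the corticosterone library. The median log2 ratio of corticosterone over vehicle was 2.63 (interval over the 10 genes, 2.14 to 3.29), and 10 of 10 reached a log2 ratio of at least 1. Among all 9676 genes with a mean of at least 5 CPM, the median log2 ratio was -0.01, and 2.24% reached that ratio. The 10 genes ranked between 5 (Oasl1) and 56 (Isg15) of these 9676. Ifit1, Ifit3b, Rsad2 and Oasl1 were under 5 CPM in the vehicle library and passed that minimum only through the corticosterone library. The sizes depended on how cells were classed: with each cell classed by its own count of marker genes, Oasl1 was at 2.28, Rsad2 at 2.03, Ifit3b at 2.14 and Oasl2 at 1.79, and Ifit2 was the highest at 2.53. Without cluster 4, a microglia-like cluster described below, Oasl1 was at 2.89, Rsad2 at 2.28, Ifit3b at 2.23 and Ifit3 at 1.66.

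**Figure D1:**
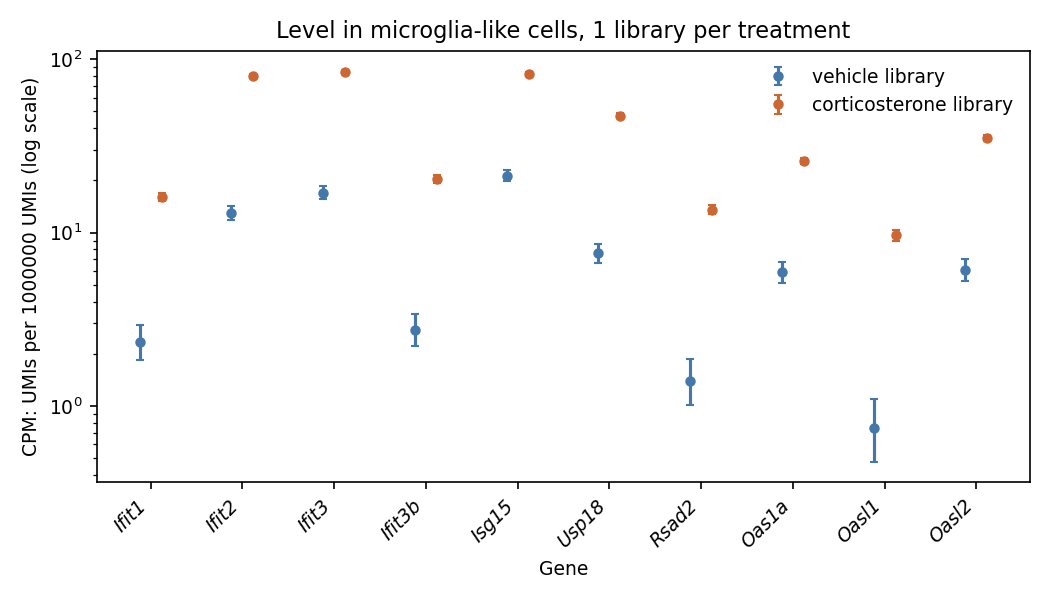
Level of each of the 10 genes in microglia-like cells (CPM, log axis) in the vehicle (blue) and corticosterone (orange) library, with exact Poisson 95% intervals for counting error and 1 library per treatment. Every gene was higher in the corticosterone library, from 13-fold for Oasl1 to 3.88-fold for Isg15.

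Among the RNA-binding Ifit proteins, Ifit1, which binds RNA with a foreign cap, was at 2.34 CPM (1.85 to 2.93) in the vehicle library and 16 CPM (15.1 to 17.0) in the corticosterone library, a log2 ratio of 2.77 (2.44 to 3.13). Ifit2, which binds AU-rich RNA, was at 13 CPM (11.8 to 14.3) and 80.4 CPM (78.4 to 82.6), a log2 ratio of 2.63 (2.49 to 2.78). Ifit3 was at 17.0 CPM (15.6 to 18.5) and 84.2 CPM (82.1 to 86.4), a log2 ratio of 2.31 (2.18 to 2.44). Its close copy Ifit3b was at 2.75 CPM (2.21 to 3.38) and 20.3 CPM (19.3 to 21.4), a log2 ratio of 2.89 (2.58 to 3.21). The intervals of the log2 ratios of Ifit3 and Ifit3b did not overlap each other, whereas those of Ifit1, Ifit2 and Ifit3b did.

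In the ISG15 pathway, the modifier Isg15 was at 21.3 CPM (19.8 to 23.0) in the vehicle library and 82.7 CPM (80.6 to 84.8) in the corticosterone library, and its log2 ratio of 1.96 (1.84 to 2.07) was the lowest of the 10. Usp18, the protease that removes ISG15, was at 7.62 CPM (6.70 to 8.63) and 47.2 CPM (45.6 to 48.8), a log2 ratio of 2.63 (2.44 to 2.82). The difference was thus larger for the protease than for the modifier, by intervals that did not overlap. The 5 enzymes that attach ISG15 differed less: 1 of 5 reached a log2 ratio of 1, the conjugating enzyme Ube2l6 (17.6 and 45.1 CPM, 1.36). Trim25 was at 0.80 (0.69 to 0.92), the ligase Herc6 at 0.50 and the activating enzyme Uba7 at 0.17. The lowest was Arih1, a ligase with many other substrates, at -0.23.

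Rsad2 was at 1.39 CPM (1.01 to 1.86) in the vehicle library, from 45 UMIs, and 13.6 CPM (12.7 to 14.5) in the corticosterone library, a log2 ratio of 3.29 (2.86 to 3.75). Its neighbour Cmpk2, a nucleotide kinase that supplies the substrate of viperin, was at 1.48 and 12.3 CPM, a log2 ratio of 3.05 (2.63 to 3.50). Cmpk2 was named after its values were seen, for its position beside Rsad2.

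Oas1a was at 5.89 CPM (5.09 to 6.79) in the vehicle library and 25.9 CPM (24.7 to 27.1) in the corticosterone library, a log2 ratio of 2.14 (1.92 to 2.36). Oasl1 rested on 24 UMIs in the vehicle library, at 0.740 CPM (0.474 to 1.10), and reached 9.63 CPM (8.92 to 10.4) in the corticosterone library, a log2 ratio of 3.70 (3.12 to 4.35). Oasl2 was at 6.11 CPM (5.29 to 7.02) and 35.0 CPM (33.6 to 36.4), a log2 ratio of 2.52 (2.31 to 2.73). The interval of Oasl1 therefore lay above those of Oas1a and Oasl2. Oas1g, the copy that shares sequence with Oas1a, had 7 and 61 UMIs.

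A smaller part of the other interferon genes reached that size. Of the antiviral effector genes, 27 of 29 in the files had a mean of at least 5 CPM, and 11 of these 27 reached a log2 ratio of 1, with none at -1 or below and a median of 0.90. Among those at 20 CPM or more, the highest was Ifitm3, which blocks virus entry, at 2.57, and the lowest Samhd1, which depletes nucleotides, at 0.02. Of 16 sensors and interferon-inducing factors, 3 reached a log2 ratio of 1, and among those at 20 CPM or more, Irf7, the factor that amplifies interferon production, was highest at 2.82 and the endosomal DNA receptor Tlr9 lowest at -0.91. The nucleic acid sensor Zbp1, under 20 CPM and named after its values were seen, was at 3.02. Of 11 receptor and signalling genes, 2 did, and the lowest was Ifngr1, a chain of the interferon gamma receptor, at -0.04. None of the 10 negative regulators did, from Ptpn6 at 0.29 to Tnfaip3 at -0.38. All 10 genes of the set lay above the median of every one of these lists.

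**Figure D2:**
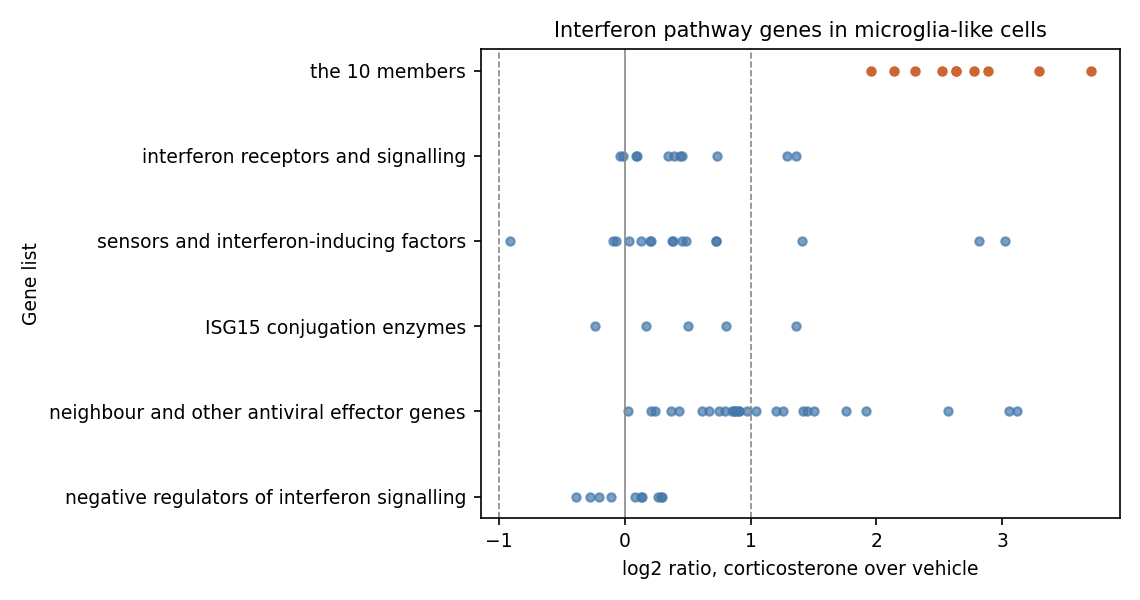
Log2 ratio of corticosterone over vehicle in microglia-like cells for the 10 genes (orange) and for the genes of 5 pathway lists with a mean of at least 5 CPM (blue); each point is a gene, the solid line marks 0 and the dashed lines 1 and -1. The 10 genes lie between 1.96 and 3.70, the antiviral effectors from 0.02 upward, and the negative regulators between -0.38 and 0.29.

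None of the 18 type I interferon genes reached a mean of 5 CPM. Ifnb1, which encodes interferon beta, had 30 UMIs in 13 of 10500 vehicle cells and 290 UMIs in 71 of 17883 corticosterone cells, of which 27 and 270 UMIs were in microglia-like cells. This is 0.833 CPM (0.549 to 1.21) against 3.81 CPM (3.37 to 4.30) in microglia-like cells. Few cells carried it, and the highest cell alone had 11 UMIs in the vehicle and 38 in the corticosterone library. Ifna2, an interferon alpha gene, went the other way, with 11 UMIs in 1 vehicle cell and 1 UMI in 1 corticosterone cell among microglia-like cells. Ifng, which encodes interferon gamma, had no UMI in either library, which allows a share of up to 0.0286% of vehicle and 0.0168% of corticosterone cells with a UMI.

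The UMIs of the 10 genes were unevenly spread over microglia-like cells. To compare cells at equal depth, each cell was thinned at random to 1000 UMIs, which left out 592 vehicle and 78 corticosterone cells. A UMI of any of the 10 genes was then found in 5.38% (4.87 to 5.92) of 7308 vehicle cells and 19.0% (18.3 to 19.6) of 15045 corticosterone cells. Without thinning the shares were 16.4% and 45.5%, at median depths of 3191.5 and 4003 UMIs. Erythroid-like cells were read as a comparison for free RNA. At the same thinned depth they gave 6.93% (2.83 to 13.8) of 101 cells and 16.1% (10.1 to 23.8) of 124 cells. Their median depths before thinning were 2895 and 4032.5 UMIs. The microglia-like shares lay within the erythroid-like intervals, so a single UMI in a cell is not read as expression by that cell. The erythroid-like cells also held microglia marker RNA at 0.725 and 0.884 times the microglia-like level. Whether their shares measure free RNA alone was not tested.

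Cells with several UMIs carried much of the total. At 1000 UMIs per cell, 12 of 7308 vehicle cells (0.164%) and 240 of 15045 corticosterone cells (1.60%, 1.40 to 1.81) had 5 or more UMIs of the 10 genes, and they held 16.3% and 38.8% of those UMIs. At least 5 different genes of the 10 were seen together in 4 vehicle and 127 corticosterone cells. The highest single cell had 14 UMIs in the vehicle and 31 in the corticosterone library, while 94.6% and 81.0% of cells had none. Among erythroid-like cells 1 of 101 and 1 of 124 reached 5 UMIs, and none had 5 different genes, numbers too small to set apart from the microglia-like shares.

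The 1% of microglia-like cells with the most UMIs of the 10 genes held 43.4% (39.2 to 47.6) of 565 UMIs in the vehicle library (73 cells) and 30.2% (29.0 to 31.4) of 5813 UMIs in the corticosterone library (150 cells). Ranking cells by the counts that are then summed raises such shares where counts are low, and the vehicle cells in this 1% had as few as 1 UMI. Ranked by UMIs of the 10 genes per UMI without thinning, the shares were 27.5% and 27.7%, so the order of the libraries was not kept. Without cluster 4, described below, they were 32.1% and 17.7%.

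To avoid that selection, each gene was then measured in the 1% of cells highest in the other 9. In the corticosterone library these cells held 47.1% (37.8 to 56.4) of Oasl1 UMIs, 46.4% (39.1 to 53.7) of Rsad2, 41.9% (36.1 to 47.8) of Ifit3b and 36.7% (30.3 to 43.5) of Ifit1. They held 32.5% (29.9 to 35.2) of Ifit3, 28.5% (25.8 to 31.3) of Ifit2 and 20.6% (18.3 to 23.1) of Isg15. The lowest shares were 16.9% (13.7 to 20.6) of Oasl2, 15.6% (12.9 to 18.5) of Usp18 and 8.0% (5.42 to 11.3) of Oas1a. The share of Oas1a was the lowest, with an interval that overlapped none of the others. The intervals of Oasl1 and Rsad2 lay above those of Ifit3, Ifit2, Isg15, Usp18 and Oasl2. These intervals take each UMI as independent although 1 cell can hold several, so they are too narrow for a share over cells. In the vehicle library the highest 1% of cells held from 11.6% of the Oas1a UMIs to 3 of the 6 Oasl1 UMIs, with intervals too wide to order the genes. For 18 reference genes the same measure, taken in the 1% of cells highest in all 10 genes, lay between 0.154% and 1.65% in the vehicle and between 0.316% and 1.39% in the corticosterone library, around the 1% that even spread gives. The lowest of these in the corticosterone library was Gpr34, a receptor of homeostatic microglia, at 0.316% (0.242 to 0.406), followed by the housekeeping gene Hprt at 0.505% (0.261 to 0.880) and the microglial receptor P2ry12 at 0.609% (0.544 to 0.679).

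**Figure D3:**
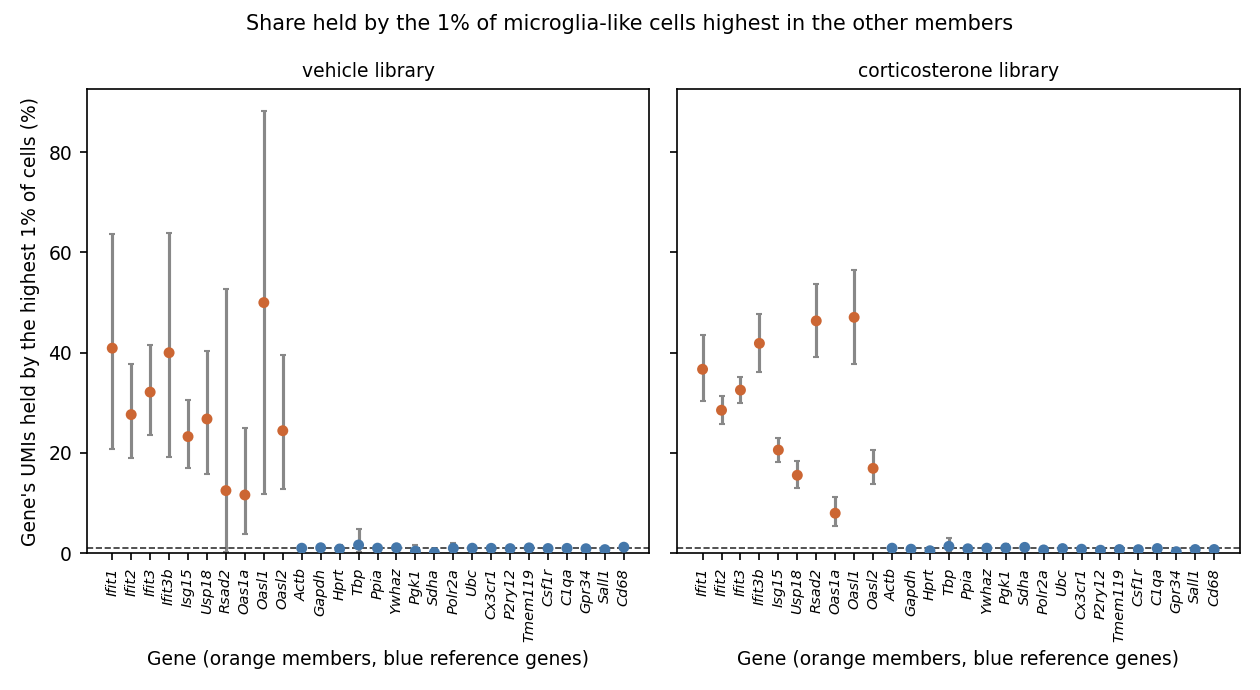
Share of each gene's UMIs (%) held by the 1% of microglia-like cells highest in the other 9 genes (orange), or in all 10 for the 18 reference genes (blue), per library at 1000 UMIs per cell; bars are exact binomial 95% intervals for counting error and the dashed line is 1%. In the corticosterone library the shares run from 8.0% (Oas1a) to 47.1% (Oasl1), against 0.316% to 1.39% for the reference genes.

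The highest 1% of corticosterone cells had medians of 4571.5 against 4010 UMIs and 3.91% against 4.09% mitochondrial UMIs. They had a microglia marker level of 22458 CPM against 30025 CPM in the other 14895 cells. They held 149 of the Ifnb1 UMIs, against 121 in the others, and Cxcl10, an interferon-induced chemokine named after its values were seen, was at 3858 CPM against 56.5 CPM. In the vehicle library the 73 highest cells held 17 Ifnb1 UMIs, against 10 in the other 7235 cells. Summed monocyte markers moved with the 10 genes, at 355 against 42.7 CPM in the corticosterone and 78.0 against 19.2 CPM in the vehicle library. Of the 8 monocyte markers, Ms4a4c made up most of the corticosterone difference (276 against 15.3 CPM), followed by Plac8 (51.7 against 3.17 CPM), while Ccr2 and S100a4 were at 0 in the highest cells and Ly6c2 at 4.08 against 2.71 CPM. Neutrophil markers were not higher there in the corticosterone library (92.4 against 133 CPM). In the vehicle library they were, at 639 against 393 CPM, and their part in the vehicle shares was not tested.

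The 10 genes were counted by cluster as well, since clustering had not used them. In cluster 0, the most frequent microglia-like cluster in both libraries (5000 and 9448 cells), their sum was 60.1 CPM in the vehicle and 239 CPM in the corticosterone library, a log2 ratio of 1.99 (1.91 to 2.07), and each of the 10 had a ratio between 1.55 (Isg15) and 2.71 (Oasl1). In cluster 1 (2772 and 5112 cells) the sum was 63.6 and 227 CPM, a ratio of 1.83 (1.68 to 1.99). Cluster 4 (68 and 463 cells) was led by Ifit2, Ifit3, Ifit3b and Ifit1, which did not enter the clustering. Iigp1 and Phf11a, next among its leading genes, were on no pathway list and were not left out, nor were Slfn5 and Ifi204. The cluster therefore cannot be taken as formed apart from genes that vary with the 10. It held 139 of the 150 highest corticosterone cells and 32 of the 73 highest vehicle cells. The sum in cluster 4 was 2351 and 5199 CPM, and without it the median log2 ratio over the 10 genes was 2.21 with 10 of 10 at 1 or more. Without the 1% of cells of each library with the most UMIs of the 10 genes per UMI, the median was 2.65. That removal ranked cells by the same counts that are compared. A difference in summed UMIs thus remained outside the highest cells. In the vehicle library the sums of clusters 0 and 1 lay below that of erythroid-like cells (146 CPM). In the corticosterone library they lay within the erythroid-like interval (229 CPM, 193 to 270). The part of free RNA in the remaining difference was not tested.

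Depth differed between the libraries, and the sum of the 10 genes rose with depth within the corticosterone library, from 325 CPM in the shallowest of 3 equal parts of the microglia-like cells (median 2794 UMIs) over 383 CPM to 465 CPM in the deepest (median 6285). In the vehicle library it was 78.0, 91.8 and 72.3 CPM, with no such order. The shallowest corticosterone cells were above the vehicle cells of the middle part (median 3192 UMIs), 325 (316 to 335) against 91.8 CPM (85.5 to 98.5). Over cells with 2000 to 4000 UMIs the median log2 ratio was 2.18. The mitochondrial share of microglia-like cells was 2.46% in the vehicle and 4.10% in the corticosterone library, and its part in the result was not tested. Summed neutrophil markers within microglia-like cells went the other way, 426 and 133 CPM, as did those of border-associated macrophages, 84.8 and 37.1 CPM, while monocyte markers were at 20.1 and 46.0 CPM with none of the 8 at 0.

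Across microglia-like cells the levels of the 10 genes went together only weakly, and least so in the vehicle library. Pearson's r between 2 of the genes, over the 45 pairs, ran from 0.01 to 0.30 (median 0.12) over 7900 vehicle cells and from 0.13 to 0.53 (median 0.34) over 15123 corticosterone cells. Of 10245 other genes, those whose level was most like the sum of the 10 in both libraries were Irf7 (r = 0.24 in the vehicle and 0.40 in the corticosterone library), Slfn5 (0.23 and 0.42), Ifi204 (0.23 and 0.40), Rtp4 (0.22 and 0.39) and Ifitm3 (0.20 and 0.39). These are descriptions over cells of 1 library each, which share depth and free RNA, and they are weak in counts this sparse.

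Border-associated macrophages line vessels and meninges. In the 1028 vehicle and 803 corticosterone cells with their markers, the sum of the 10 genes was 150 CPM (142 to 157) in the vehicle and 464 CPM (448 to 480) in the corticosterone library. The median log2 ratio was 1.67 (interval over the 10 genes, 1.28 to 2.20). In this class 10 of 10 genes reached 1, against 2.82% of the 9747 genes with a mean of at least 5 CPM. The median of those 9747 genes was 0.01. Ifit1 and Oasl1 were under 5 CPM in the vehicle library here too, and passed that minimum only through the corticosterone library. Ifit3 was at 36.9 CPM (33.3 to 40.7) and 89.8 CPM (82.8 to 97.1), Isg15 at 27.7 CPM (24.6 to 31.0) and 78.6 CPM (72.1 to 85.5), and Oas1a at 10.7 CPM (8.82 to 12.9) and 49.2 CPM (44.1 to 54.7). In the vehicle library the sum was 1.91 times that of microglia-like cells and in the corticosterone library 1.12 times. The log2 ratio of the sum, 1.63 (1.55 to 1.72), lay below that of microglia-like cells, 2.41 (2.35 to 2.47), by intervals that did not overlap. Microglia markers stood at 0.816 and 0.657 times their microglia-like level in this class, and the part of microglial RNA in these values was not tested.

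Among the cell classes, the 10 genes were most abundant, relative to all UMIs, in neutrophil-like cells (485 vehicle and 420 corticosterone cells). Their sum there was 358 CPM (335 to 382) in the vehicle and 2255 CPM (2196 to 2316) in the corticosterone library. These were 4.58 and 5.43 times the microglia-like level. Within the microglia-like class, cluster 4 lay higher, at 2351 and 5199 CPM. The median log2 ratio in neutrophil-like cells was 2.75 (interval over the 10 genes, 1.95 to 3.29). In this class 10 of 10 genes reached 1, against 2.83% of the 9660 genes. The median of those 9660 genes was -0.19. Ifit1 had the highest ratio, 15.5 CPM (11 to 21.2) in the vehicle and 169 CPM (153 to 186) in the corticosterone library, a log2 ratio of 3.45 (2.97 to 3.96). Oas1a had the lowest, 19.1 CPM (14.1 to 25.3) and 50.8 CPM (42.2 to 60.6), a log2 ratio of 1.41 (0.92 to 1.93). Rsad2 was at 48.9 CPM (40.6 to 58.3) and 332 CPM (310 to 356). At 1000 UMIs per cell, 26.3% (22.0 to 31.0) of 388 vehicle and 68.2% (63.5 to 72.7) of 412 corticosterone neutrophil-like cells had a UMI of any of the 10 genes, above the erythroid-like shares, and 131 of the 412 had 5 or more. Microglia markers were at 0.594 and 0.376 times their microglia-like level in this class.

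**Figure D4:**
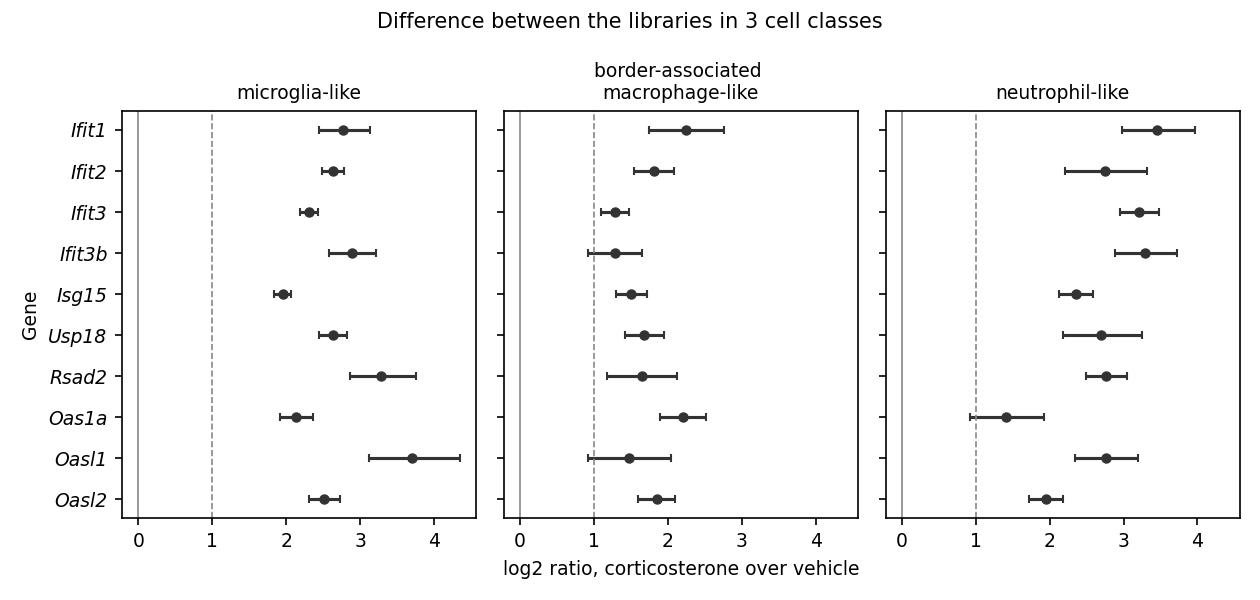
Log2 ratio of corticosterone over vehicle for each of the 10 genes in microglia-like cells, neutrophil-like cells and border-associated macrophage-like cells, with 95% intervals for counting error; the solid line marks 0 and the dashed line 1. All 30 points lie above 1, and the medians are 2.63, 2.75 and 1.67, in the order named.

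The neutrophil-like class held 3 clusters that differed in their levels and in their share of each library. Cluster 5, led by genes of mature neutrophils such as Cxcr2 (196 and 256 cells), had 540 and 3708 CPM summed over the 10 genes, a log2 ratio of 2.78 (2.66 to 2.90). Cluster 6, led by granule genes such as Camp and Ngp (144 and 138 cells), had 197 and 912 CPM, a ratio of 2.21 (1.97 to 2.45). Cluster 9, led by cell division genes (145 and 26 cells), had 40 and 25 UMIs of the 10 genes, 107 and 254 CPM. The direction of the sum was the same in all 3, but that of single genes was not. In cluster 9 Ifit3 was at -0.88 and Oasl2 at -0.39, from few UMIs. In cluster 6 Ifit2 was at 0.14 (-1.06 to 1.39) and Oas1a at 0.55 (-0.11 to 1.24), while the other genes there were above 1.

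The make-up of the signal differed between the classes. Rsad2 held 1.78% (1.30 to 2.37) of the UMIs of the 10 genes in vehicle and 3.27% (3.07 to 3.48) in corticosterone microglia-like cells, against 13.6% (11.5 to 16.1) and 14.7% (13.8 to 15.7) in neutrophil-like cells. Ifit2 held 16.6% (15.2 to 18.1) and 19.4% (18.9 to 19.8) in microglia-like cells, against 3.66% (2.53 to 5.10) and 3.90% (3.40 to 4.45) in neutrophil-like cells. Usp18 likewise took a larger share in microglia-like cells (9.75% and 11.4%) than in neutrophil-like cells (3.99% and 4.10%), and Oasl1 a smaller one (0.95% and 2.32% against 6.10% and 6.57%). Border-associated macrophage-like cells lay between them for Ifit2 (10.5% and 11.9%), and in both libraries they had more of Oasl2 (12% and 13.9%) than microglia-like cells (7.82% and 8.42%). None of these paired intervals between microglia-like and neutrophil-like cells overlapped in either library. The part of free RNA in these shares was not tested.

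**Figure D5:**
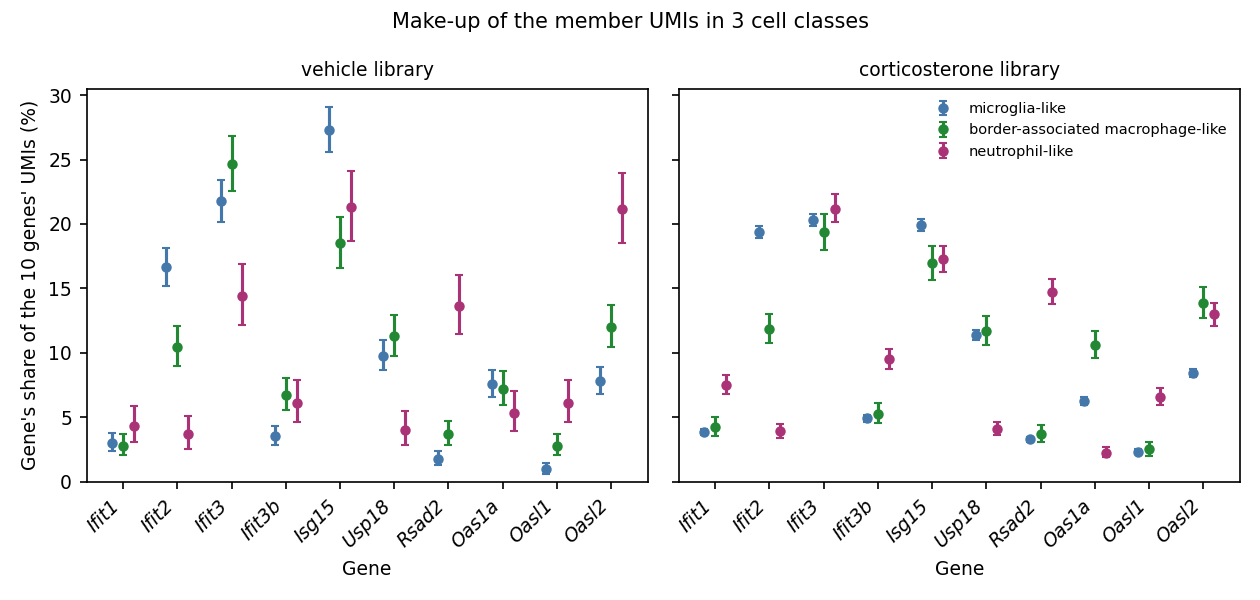
Share of each gene (%) in the UMIs of the 10 genes, in microglia-like (blue), border-associated macrophage-like (green) and neutrophil-like (purple) cells of each library, with exact binomial 95% intervals for counting error. Rsad2 takes 13.6% and 14.7% in neutrophil-like cells against 1.78% and 3.27% in microglia-like cells, and Ifit2 the reverse.

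Fewer UMIs stood behind the remaining clusters. Cluster 2 (731 and 1210 cells) was left unnamed. Its sum of the 10 genes was 53.5 and 254 CPM, a log2 ratio of 2.25 (1.92 to 2.60). Microglia-like cluster 10 (60 and 100 cells) had 9 and 145 UMIs of the 10 genes, a ratio of 2.92 (1.95 to 4.07). Endothelial-like cluster 12 (43 and 34 cells) had 53 and 140 UMIs, a ratio of 1.97 (1.51 to 2.46). In cluster 7 (156 and 107 cells), led by class II genes such as H2-Eb1 and Cd74, the sum of the 10 genes was 186 and 700 CPM, a log2 ratio of 1.91 (1.70 to 2.12). In cluster 11 (34 and 60 cells), led by S100a4, Fn1 and Plac8, it was 131 CPM from 22 UMIs and 1529 CPM, a ratio of 3.54 (2.93 to 4.23). Erythroid-like cells had 57 and 141 UMIs of the 10 genes, 146 CPM (110 to 189) and 229 CPM (193 to 270), and the order of the libraries was not the same for all genes, with 20 and 2 UMIs of Rsad2 and 4 and 26 of Ifit2.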

How the data were processed

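Single-cell libraries of sorted microglia, 1 per treatment, were read as deposited: matrices of UMI counts per gene and barcode, whole numbers that the authors had not normalised. Reads were demultiplexed with bcl2fastq 2.19 and the build was GRCm38, per the submitters' processing notes; aligner, counter, annotation and cell calling are not given in the sources used here. The files' names use other words than the labels, and each file took its treatment from its sample record. The 10 genes, the gene lists, markers and alternatives were chosen with earlier results of these data known.

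Cells were kept at 500 UMIs, 300 genes and 20% mitochondrial UMIs. Of repeated symbols (52 rows), none among the 10 genes, the earliest row was used. Counts were scaled to 10000 per cell and logged. The 2000 variable genes left out the 10 genes and the genes of the pathway lists, but not interferon genes outside those lists. From them, 30 components and 15 neighbours entered Leiden clustering at resolution 0.5 (scanpy 1.11.5, leidenalg 0.10.2). Genes were centred and scaled within each library, and marker folds taken within it, a choice made after a joint scaling was seen to split clusters by library. A cluster was named from at least 3 markers detected in 10% of cells at 2 times their level elsewhere, or as microglia-like from the level of the microglia markers. Scrublet marked 0 cells of either library, which is read as a failed call, and no cell was removed as a doublet.

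UMIs were summed per library and class and given as CPM with exact Poisson intervals; log2 ratios used exact intervals for a ratio of counts, medians order-statistic intervals and shares exact binomial intervals (scipy 1.17.1). A log2 ratio of 1 was the size called, among genes with a mean of at least 5 CPM. Named were all 10 genes, the highest and lowest gene of each list at 20 CPM or more, and the 5 genes most like the sum; 2 genes that this rule picks are not reported here. edgeR 4.0.16 and DESeq2 1.42.0 gave alternative scalings only. Ratios, intervals and shares were tested on simulated data. Sequences came from RefSeq promoters and positions from GENCODE M21, both of GRCm38.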

Additional observations from a re-analysis of the deposited data

How the results depend on the processing

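With 1 library per treatment, no alternative bears on variation between mice, and no paired analysis was possible because each group had 1 library. In microglia-like cells each of the 10 genes stayed at a log2 ratio of at least 1 under all 16 alternatives run for it, from 1.48 (Isg15, cells with 2000 to 4000 UMIs) upward. The median ran from 2.09, where each cell was classed by its own count of marker genes, to 3.02 without the highest 10% of cells. Oasl1 ranged most, from 2.28 with cells classed by their own markers over 2.41 in all cells and 2.56 at 2000 to 4000 UMIs to 5.90 without the highest 10%, where Usp18 was at 3.43 and Oas1a at 2.99. That removal takes most from the vehicle library, where 16.4% of cells had a UMI. Of the 5 genes with a mean of at least 20 CPM, 5 reached the ratio. Under the alternatives run, the median ran from 1.66 to 1.79 in border-associated macrophage-like cells and from 2.27 to 2.94 in neutrophil-like cells. These values lay within the intervals over the 10 genes, which are too wide for that to show stability. edgeR's TMM and DESeq2's size factors raised neutrophil-like ratios by 0.18 and 0.19 and moved those of the other classes by no more than 0.01.

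The shares over cells depended on depth. In the vehicle and corticosterone library, cells with a UMI made up 10.1% and 30.2% at 2000 UMIs per cell, 16.4% and 45.5% without thinning, and 4.82% and 16.8% without cluster 4. The highest 1% of cells held 38.0% and 28.8% at 2000 UMIs, 27.5% and 27.7% ranked per UMI without thinning, and 32.1% and 17.7% without cluster 4. With cells classed by their own markers, the vehicle values were 37.6% held and 6.67% of cells. Leaving out cluster 4, barcodes found in both libraries or single neutrophil-like clusters, and the range of 2000 to 4000 UMIs, were chosen after seeing the data. Cluster 9 alone gave no median, since a gene had no UMI there.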
